A study of Homo sapiens with 3 samples.

Results

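The transcription factors that direct the epidermal keratinocyte programme were examined in HaCaT cells, an immortalized line of human keratinocytes, after knockdown of the splicing factor SRSF5. The members were chosen by name: TP63, TFAP2A, GRHL1, GRHL2, GRHL3, KLF4, ZNF750, OVOL1 and OVOL2, each taken as all transcripts of that name on the main chromosomes. They are 9 of 60506 genes and 72 of 226669 transcripts. The cells received siRNA 1 against SRSF5, siRNA 2 against SRSF5 or a control siRNA, each at 10 nM, and RNA from each was sequenced in 1 library. The time between transfection and harvest is not given in the sources used here. Each siRNA therefore stands for 1 transfection of 1 line, and the difference of either siRNA from the control has no replicate check.

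Stratified epidermis renews itself from basal keratinocytes, which stop dividing, move upwards and build a cornified barrier. p63, the product of TP63, holds the basal state and opens the epidermal programme together with AP-2 factors such as TFAP2A. The grainyhead-like factors GRHL1, GRHL2 and GRHL3 regulate genes of cell adhesion and barrier repair, KLF4 and ZNF750 act in late differentiation, and OVOL1 and OVOL2 restrain proliferation and mesenchymal genes.

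TP63 is transcribed from alternative starts. The upstream start gives the long form (TAp63), which carries an N-terminal transactivation domain, and the downstream start gives the short form (deltaNp63), which is known as the main form of basal keratinocytes. Of 14 TP63 transcripts, 6 begin at the upstream start and 8 at the downstream start. The first coding exons that set the forms apart are shown because the reads in them bear on which form the values below can describe. They are read on the plus strand of chromosome 3 in GRCh38 from GENCODE 29 transcripts, with the start codon in capitals: the short form (transcript TP63-206) at chr3:189789801-189789842, 42 bases, and the long form (transcript TP63-210) at chr3:189631516-189631577, 62 bases.
TP63-206, short form: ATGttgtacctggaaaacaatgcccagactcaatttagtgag
TP63-210, long form: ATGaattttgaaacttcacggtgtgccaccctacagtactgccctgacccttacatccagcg

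Values are FPKM, read coverage scaled to transcript length and library size, as deposited for every transcript. Each counted base enters all the transcripts that contain it, so isoforms share reads and the sum over the transcripts of a gene is a relative level. For the same reason, transcripts of a gene that lie on the same side of the control are not separate observations. The text gives that sum, and the mean per transcript where levels of different genes are compared. A read equivalent is 100 counted bases. Log2 ratios were taken on the summed FPKM plus 1, siRNA over control.

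SRSF5 itself averaged 2.33 FPKM per transcript with siRNA 1, 0.983 with siRNA 2 and 4.95 with the control siRNA, which puts siRNA 1 at 47.1% and siRNA 2 at 19.8% of the control. The 3 libraries held between 15539830 and 17987902 read equivalents on the largest transcript of each gene. Mitochondrial transcripts took 15.1% of the counted bases with siRNA 1, 10.2% with siRNA 2 and 14.03% with the control siRNA. Of 11 keratinocyte markers, 11 were above 0 in every library, and their mean FPKM per transcript added up to 1401 with siRNA 1, 2331 with siRNA 2 and 1163 with the control. KRT14 alone gave 347, 1055 and 238 of these. The 4 simple epithelial keratin genes added up in the same way to 566, 553 and 545. The 6 fibroblast markers added up to 0.479 FPKM with siRNA 1, 0.573 with siRNA 2 and 0.242 with the control, where LUM was at 0. The 4 melanocyte markers added up to 0.0226, 0.0452 and 0.0382, with MLANA and TYR at 0 in all libraries, the 3 immune markers to 0.168, 0.187 and 0.145, and the 2 endothelial markers to 0.0826, 0.144 and 0.343. The part of these shifts in the results below was not tested.

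Most of the difference among the members lay in the siRNA 2 library. There TP63 and KLF4 were at least 2-fold higher than in the control and GRHL1 was at least 2-fold lower, while with siRNA 1 no member was 2-fold from the control in either direction. Of the members, 8 had a mean summed FPKM of at least 1 and entered the comparisons, and ZNF750 did not. With siRNA 2, 2 of the 8 were at least 2-fold higher, where 4.5% of the 13923 genes compared were, and 1 of the 8 was at least 2-fold lower, where 2.83% were. With siRNA 1, 0 of the 8 passed, where 1.7% of all genes were higher and 1.33% lower. When both siRNAs had to give a 2-fold difference of one sign, 0 members passed, where 0.733% of all genes were higher and 0.28% lower by that rule. At 1.5-fold in both libraries the count of members was again 0 in each direction, where 3.19% of all genes were higher and 1.47% lower. At 1.5-fold with siRNA 1 alone it was 0 in each direction, where 6.18% of all genes were higher and 5.47% lower. At 1.5-fold with siRNA 2 alone it was 3 higher, with OVOL2 added, and 1 lower, where 13.2% of all genes were higher and 10.1% lower. The median log2 ratio of the 8 members was -0.29 with siRNA 1 and 0.17 with siRNA 2, where the median of all genes was -0.02 and 0.05.

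The siRNAs were also set against each other. With siRNA 2 over siRNA 1, TP63, KLF4 and OVOL2 were at least 2-fold higher and GRHL1 at least 2-fold lower, 3 and 1 of the 8 members, where 3.96% of all genes were higher and 2.88% lower. On the mean over transcripts plus 1, TP63 (0.85), OVOL2 (0.92) and GRHL1 (-0.50) were under 2-fold on the log2 scale, and without mitochondrial genes in the scaling TP63 was at 0.99. A limma fit of the control against both siRNA libraries called 0 genes at an adjusted p of 0.05, with 416 genes at an unadjusted p under 0.05 and a smallest adjusted p of 0.104. limma's adjusted p was 1.00 for each of the 8 members. The p-values rest on the spread between the siRNA 1 and siRNA 2 libraries, pooled in part over all genes, and the lone control adds none. That spread includes how far the siRNAs differ and may be partly technical. Genes on which the siRNAs differ, such as TP63, KLF4 and OVOL2, therefore get a wider spread. Both ratios share the control library.

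**Figure D1:**
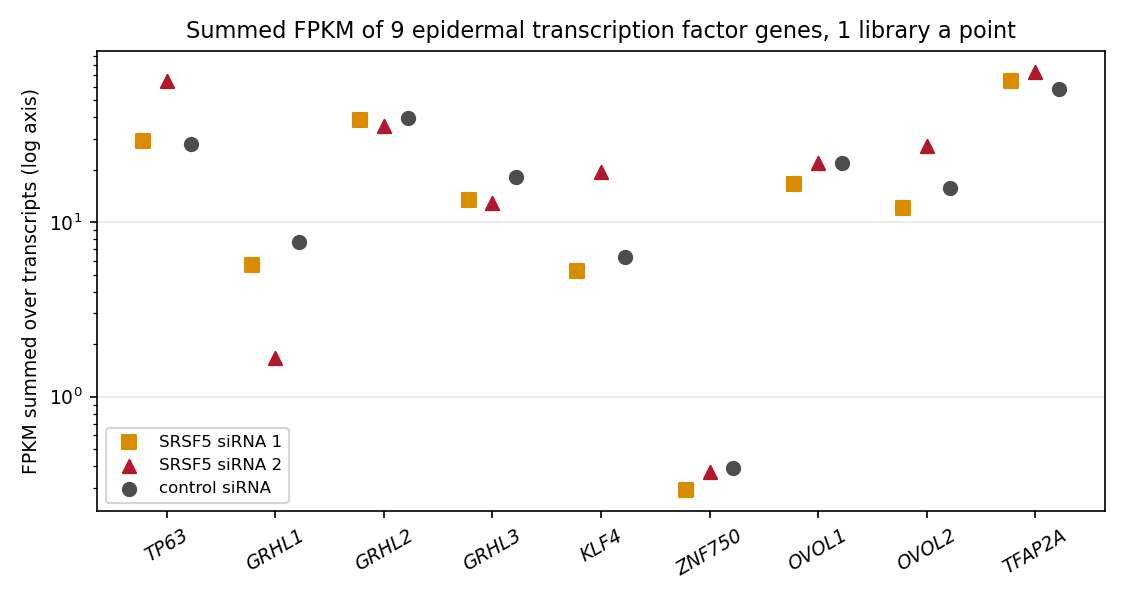
FPKM summed over the transcripts of each of the 9 genes in the siRNA 1, siRNA 2 and control libraries, on a log axis, 1 point for each library. The siRNA 2 point stands above the others for TP63, KLF4 and OVOL2 and below them for GRHL1.

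Per transcript, OVOL1 and GRHL2 were the most abundant members in every library. The mean FPKM per transcript of OVOL1 was 5.55 with siRNA 1, 7.28 with siRNA 2 and 7.27 with the control. GRHL2 had 6.45, 5.93 and 6.58 in the same libraries. In the control, OVOL2 (3.15), TFAP2A (3.04), GRHL3 (2.02), TP63 (2.01), KLF4 (1.05), GRHL1 (0.966) and ZNF750 (0.194) followed. With siRNA 1 GRHL2 stood above OVOL1, TFAP2A above OVOL2 and TP63 above GRHL3. With siRNA 2 TP63 (4.58) and KLF4 (3.22) stood above GRHL3 (1.43), and GRHL1 (0.208) came close to ZNF750 (0.185). With 1 library each, no spread is at hand to set neighbours in these orders apart.

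TP63 was higher with siRNA 2 and near the control with siRNA 1. The gene (ENSG00000073282.13) lies on chromosome 3, 189631389 to 189897276, plus strand. Its summed FPKM was 29.4 with siRNA 1, 64.2 with siRNA 2 and 28.1 with the control, log2 ratios of 0.06 and 1.16. The siRNA 2 library stands apart and the other two lie close together. The largest transcript, TP63-201 of 4944 bases, held 487 read equivalents with siRNA 1, 1184 with siRNA 2 and 551 with the control. Its log2 ratio to the control was -0.10 with siRNA 1 (exact 95% interval -0.28 to 0.08) and 1.21 with siRNA 2 (1.07 to 1.36). Here and below such intervals come from a binomial comparison of the libraries' read equivalents and cover counting error only. The limma log2 difference of both siRNAs from the control was 0.61 ± 0.47 (SE, unadjusted p = 0.219). Among all genes compared, 97.0% had a lower siRNA 2 ratio than TP63, and 60.9% a lower siRNA 1 ratio. Taken on the mean over transcripts plus 1 the siRNA 2 ratio was 0.89, and on the highest transcript plus 1 it was 0.95, both under 2-fold.

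The TP63 isoforms, which share many exons and so reads, gave like ratios. In the 13 transcripts above 0 in the control, FPKM with siRNA 2 was 2.20 to 2.32 times the control, and with siRNA 1 it was 0.931 to 1.09 times. With siRNA 1, 11 of these transcripts were higher than in the control and 2 lower. Those 2 are TP63-201 and TP63-203, the pair with the longest 3′ end, and they had 2.33 and 2.49 FPKM with siRNA 1, 5.80 and 6.20 with siRNA 2, and 2.50 and 2.67 with the control. TP63-205, the short-form transcript with the highest FPKM, had 3.03 with siRNA 1, 6.50 with siRNA 2 and 2.89 with the control. Transcripts that end early, of the kind called gamma, had lower FPKM. The long TP63-207 was at 1.17, 2.45 and 1.08 FPKM and the short TP63-209 at 1.32, 2.76 and 1.22 in the same order of libraries.

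**Figure D2:**
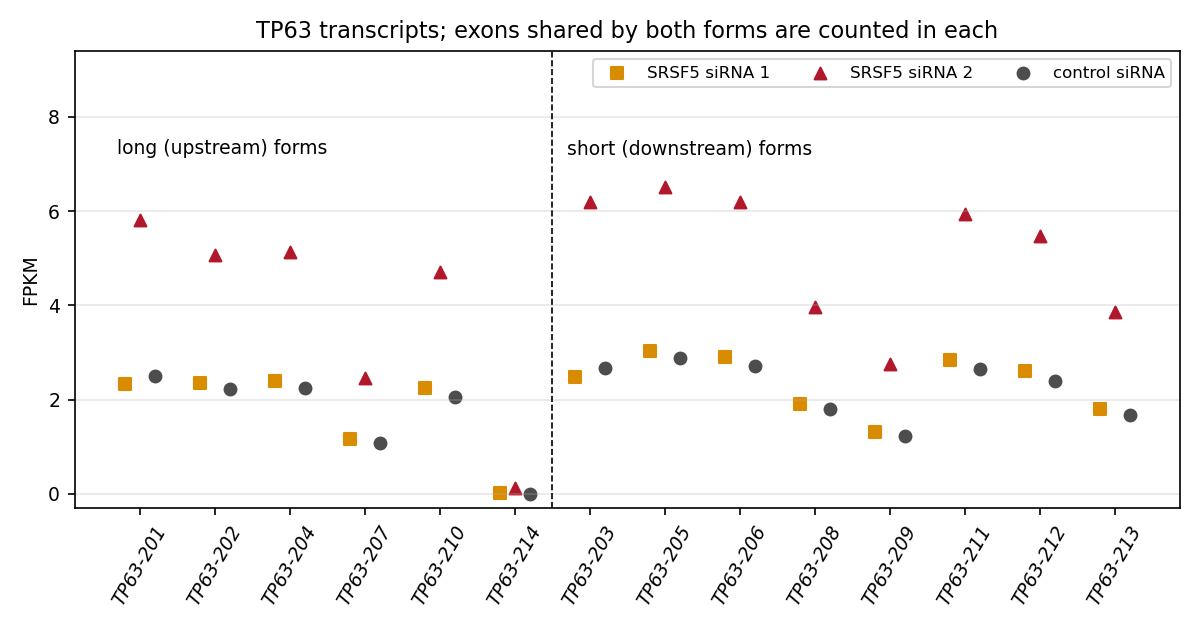
FPKM of the 14 TP63 transcripts in the siRNA 1, siRNA 2 and control libraries, with the 6 long forms to the left and the 8 short forms to the right of the dashed line. The siRNA 2 points lie above the others in each transcript, and TP63-214, made of upstream exons, lies at or near 0 in all libraries.

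As listed, the long forms made up 35.7% of the summed TP63 FPKM with siRNA 1, 36.3% with siRNA 2 and 35.97% with the control. These shares differed by less than 1 percentage point, but the FPKM of the long forms comes almost wholly from exons they share with the short forms. TP63-214 (546 bases) is made of upstream sequence alone, and in it 23 bases were counted with siRNA 1, 260 with siRNA 2 and 0 with the control, under 3 read equivalents in each library. A count of 0 in the control allows up to 0.123 FPKM in this transcript (3 read equivalents), above the 0.00996 FPKM with siRNA 1 and the 0.115 FPKM with siRNA 2. TP63-214 contains all 352 upstream bases of TP63-207, so at most 0.166% of the bases of TP63-207 with siRNA 1, 0.914% with siRNA 2 and 0% with the control lay in its upstream exons. The long form's own exons were thus near or below what these libraries could detect, and its listed share says little about its own level.

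The nested transcripts also bound the reads of the short form's own first exon. This exon of 183 bases (chromosome 3, 189789660 to 189789842) held at least 364 bases with siRNA 1, 1055 with siRNA 2 and 458 with the control. Its coding end, the 42 bases printed above for TP63-206, held 63 to 85 bases with siRNA 1, 54 to 314 with siRNA 2 and 25 with the control. All 3 libraries therefore have counted bases at the downstream start. Coverage of the coding end was thin: with the control it was 0.134 FPKM, where TP63-206 was listed at 2.71 FPKM. How far counts at the starts set the long and short forms apart was not tested. The last exon of the gamma transcripts (189880064 to 189881496) could only be bounded loosely, at 600 to 12657 bases with siRNA 1, 550 to 25944 with siRNA 2 and 467 to 12607 with the control, so the use of that end cannot be compared.

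TFAP2A, which encodes AP-2 alpha, was slightly higher with both siRNAs. The gene (ENSG00000137203.12) lies on chromosome 6, 10393186 to 10419659, minus strand, with 19 transcripts. The 19 transcripts summed to 64.8 FPKM with siRNA 1, 73.0 with siRNA 2 and 57.8 with the control, log2 ratios of 0.16 and 0.33. Both siRNA libraries lie above the control by less than 1.5-fold. The largest transcript, TFAP2A-202, gave log2 ratios of 0.20 with siRNA 1 (0.01 to 0.39) and 0.27 with siRNA 2 (0.08 to 0.46), from 480, 492 and 440 read equivalents with siRNA 1, siRNA 2 and the control. Of the 19 transcripts, 17 exceeded the control with siRNA 1, and 19 did so with siRNA 2. TFAP2A-204 had the highest siRNA 2 ratio, with 3.43 FPKM with siRNA 1, 5.38 with siRNA 2 and 3.52 with the control. In limma the difference was 0.25 ± 0.37 (SE). Exons of the genes TFAP2A-AS1 and AL138885.3 overlap TFAP2A on the opposite strand by 438 and 941 bases, and the counting used strand.

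GRHL1, GRHL2 and GRHL3 bind the same DNA motif and are known for desmosome genes, for adhesion and E-cadherin, and for barrier formation, in that order. GRHL1 was the member with the lowest siRNA 2 ratio. The gene (ENSG00000134317.18) lies on chromosome 2, 9951693 to 10002277, plus strand, with 8 transcripts. GRHL1 transcripts summed to 5.65 FPKM with siRNA 1, 1.66 with siRNA 2 and 7.73 with the control, log2 ratios of -0.39 and -1.71. Without the added 1 the levels were 73.0% and 21.5% of the control. Both siRNA libraries lie below the control, and the siRNA 2 library far below the siRNA 1 library. Only 0.381% of all genes compared had a lower siRNA 2 ratio, and 12.2% a lower siRNA 1 ratio. On the mean over transcripts plus 1 the siRNA 2 ratio was -0.70 and on the highest transcript plus 1 it was -0.96, both short of 2-fold.

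The lower level was seen in every listed GRHL1 transcript, and these share reads. FPKM was 0.667 to 0.804 times the control with siRNA 1 and 0.177 to 0.256 times with siRNA 2, lower in 8 of 8 transcripts in both. GRHL1-201, a coding transcript of 3568 bases, had 1.10 FPKM with siRNA 1, 0.361 with siRNA 2 and 1.64 with the control. The depth was modest: GRHL1-201 held 165, 53.2 and 261 read equivalents in these libraries. The largest transcript, GRHL1-208, which keeps an intron, gave log2 ratios of -0.39 with siRNA 1 (-0.97 to 0.19) and -2.12 with siRNA 2 (-3.13 to -1.26). A 3′ stretch of 1072 bases could be bounded from the nested transcripts at 1.39 to 2.35 FPKM with siRNA 1. With siRNA 2 the bounds were 0.579 to 0.876 and with the control 2.59 to 3.80. These ranges do not overlap, but they cover neither counting error nor spread between libraries. The limma difference was -1.05 ± 0.54 (SE, unadjusted p = 0.0758).

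GRHL2 differed little between the libraries. The gene (ENSG00000083307.12) lies on chromosome 8, 101492439 to 101669726, plus strand, with 6 transcripts. The 6 transcripts summed to 38.7 FPKM with siRNA 1, 35.6 with siRNA 2 and 39.5 with the control, log2 ratios of -0.03 and -0.15. Its largest transcript, GRHL2-206, held 2205, 1998 and 2515 read equivalents with siRNA 1, siRNA 2 and the control, the deepest of the members. There the log2 ratio was -0.11 with siRNA 1 (-0.20 to -0.03) and -0.22 with siRNA 2 (-0.31 to -0.14), and both intervals lie below 0. limma gave a difference of -0.09 ± 0.38 (SE).

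GRHL3 was lower than the control by a like amount in both siRNA libraries. The gene (ENSG00000158055.15) lies on chromosome 1, 24319322 to 24364482, plus strand, with 9 transcripts. GRHL3 transcripts summed to 13.4 FPKM with siRNA 1, 12.9 with siRNA 2 and 18.2 with the control, log2 ratios of -0.42 and -0.47. The siRNA libraries lie close together and below the control, by less than 1.5-fold. All 9 transcripts were lower, at 0.698 to 0.761 times the control with siRNA 1 and 0.661 to 0.753 times with siRNA 2. The largest transcript, GRHL3-204, gave log2 ratios of -0.42 (-0.69 to -0.14) with siRNA 1 and -0.44 (-0.72 to -0.17) with siRNA 2, from 189, 181 and 266 read equivalents with siRNA 1, siRNA 2 and the control. The limma difference was -0.44 ± 0.41 (SE, unadjusted p = 0.305).

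KLF4 was higher with siRNA 2 and not with siRNA 1. KLF4 is needed for the barrier of the outer epidermis. The gene (ENSG00000136826.15) lies on chromosome 9, 107484852 to 107490482, minus strand, with 6 transcripts. Its summed FPKM was 5.28 with siRNA 1, 19.3 with siRNA 2 and 6.28 with the control, log2 ratios of -0.21 and 1.48, and the siRNA 2 level was 307% of the control. The siRNA 1 library lies just below the control and the siRNA 2 library well above both. The largest transcript, KLF4-201, held 118 read equivalents with siRNA 1, 430 with siRNA 2 and 150 with the control, log2 ratios of -0.27 (-0.63 to 0.09) and 1.63 (1.36 to 1.91). With siRNA 2 all 6 transcripts were higher, by 2.96 to 3.31 times. With siRNA 1 the transcripts ran from 0.521 to 1.10 times the control, and the lowest of these was KLF4-203, with 0.154 FPKM with siRNA 1, 0.978 with siRNA 2 and 0.295 with the control. In limma the difference was 0.63 ± 0.60 (SE, unadjusted p = 0.316).

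ZNF750, a zinc finger factor that acts below p63 and induces KLF4 in differentiating keratinocytes, was barely detected. The gene (ENSG00000141579.7) lies on chromosome 17, 82829434 to 82840022, minus strand, with 2 transcripts. The sum was 0.290 FPKM with siRNA 1, 0.369 with siRNA 2 and 0.388 with the control, under the mean of 1 needed to enter the comparisons. ZNF750-201 held 22, 32.5 and 28.5 read equivalents with siRNA 1, siRNA 2 and the control. Its log2 ratio was -0.30 with siRNA 1 (-1.15 to 0.59) and 0.30 with siRNA 2 (-0.47 to 1.09). The siRNA 1 interval does not exclude a 1.5-fold difference in either direction, though its upper end only just reaches one. The transcripts share 1513 bases, which held 800 bases with siRNA 1, 750 with siRNA 2 and 1250 with the control. The 1645 bases of ZNF750-201 alone held 1400, 2500 and 1600.

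**Figure D3:**
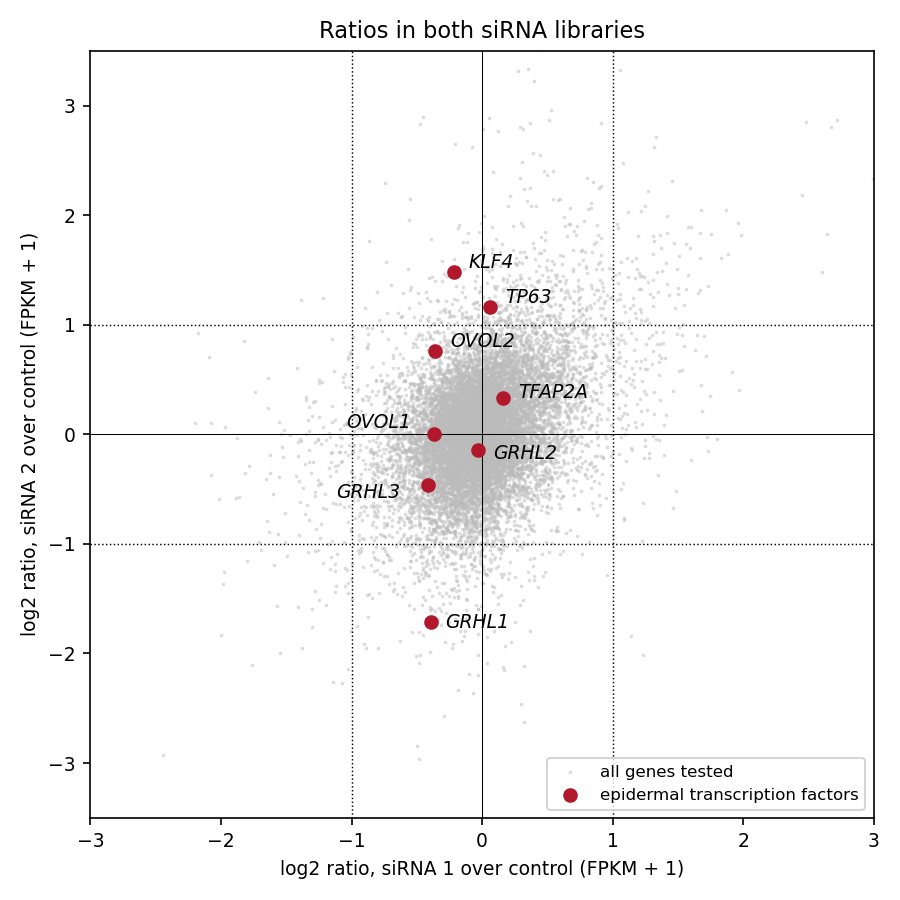
Log2 ratio of siRNA 1 to the control (horizontal) against that of siRNA 2 to the control (vertical) for all 13923 genes (grey) and the 8 members compared (named), with dotted lines at 2-fold; 4 genes lie outside the axes. TP63 and KLF4 lie above the upper siRNA 2 line and GRHL1 below the lower one, and no member passes a siRNA 1 line.

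OVOL1 and OVOL2 are zinc finger repressors. OVOL1 acts in the exit from proliferation, and OVOL2 is known for keeping epithelial cells from a mesenchymal state. OVOL1 (ENSG00000172818.10; chromosome 11, 65787063 to 65797214, plus strand, 3 transcripts) had a summed FPKM of 16.7 with siRNA 1, 21.8 with siRNA 2 and 21.8 with the control, log2 ratios of -0.37 and 0.00. The siRNA 1 library is the low one and the other two lie together. On OVOL1-201 the log2 ratio was -0.37 with siRNA 1 (-0.50 to -0.24) and 0.09 with siRNA 2 (-0.03 to 0.21), from 840, 1124 and 1144 read equivalents with siRNA 1, siRNA 2 and the control. limma gave a difference of -0.18 ± 0.41 (SE).

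OVOL2 was lower than the control with siRNA 1 and higher with siRNA 2. The gene (ENSG00000125850.11) lies on chromosome 20, 17956979 to 18059188, minus strand, with 5 transcripts. Its summed FPKM was 12.1 with siRNA 1, 27.3 with siRNA 2 and 15.7 with the control, log2 ratios of -0.36 and 0.76. The control lies between the siRNA libraries. OVOL2-201, the largest transcript, held 119 read equivalents with siRNA 1, 323 with siRNA 2 and 186 with the control, log2 ratios of -0.57 (-0.91 to -0.23) and 0.90 (0.64 to 1.18). A stretch of 691 bases (18024262 to 18024952) was bounded at 0.049 to 3.14 FPKM with siRNA 1. With siRNA 2 the bounds were 5.08 to 8.98 and with the control 1.84 to 4.78. The siRNA 2 range lies above both others, but such bounds cover neither counting error nor spread between libraries. The limma difference was 0.20 ± 0.49 (SE, unadjusted p = 0.691).

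One OVOL2 transcript stood apart from the rest. OVOL2-204 had 3.88 FPKM with siRNA 1, 4.90 with siRNA 2 and 3.69 with the control, a narrower range than OVOL2-205 with 2.19, 6.27 and 3.34. Of its bases, 59 lie in exons of SNX5 on the same strand, a sorting nexin gene with 7.81, 6.16 and 6.99 FPKM per transcript, so OVOL2-204 can hold SNX5 reads and its values are uncertain as OVOL2 values. The other OVOL2 transcripts were at 0.656 to 0.718 times the control with siRNA 1. The highest transcript, used as a second measure of the gene level, is OVOL2-204 itself. Taken from it, the OVOL2 ratio was 0.06 with siRNA 1 and 0.33 with siRNA 2. The lower siRNA 1 value and the 2-fold gap between the siRNAs were lost there. With the mean over transcripts plus 1 that gap was 0.92 on the log2 scale, under 2-fold. Its share of the summed OVOL2 FPKM was 32.1% with siRNA 1 and 23.4% with the control. That gap of 8.68 points was the largest shift of any member transcript with siRNA 1. With siRNA 2 the largest was 15.3 points for ZNF750-201, at 67.5% against 52.2% with the control, on few reads.

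**Figure D4:**
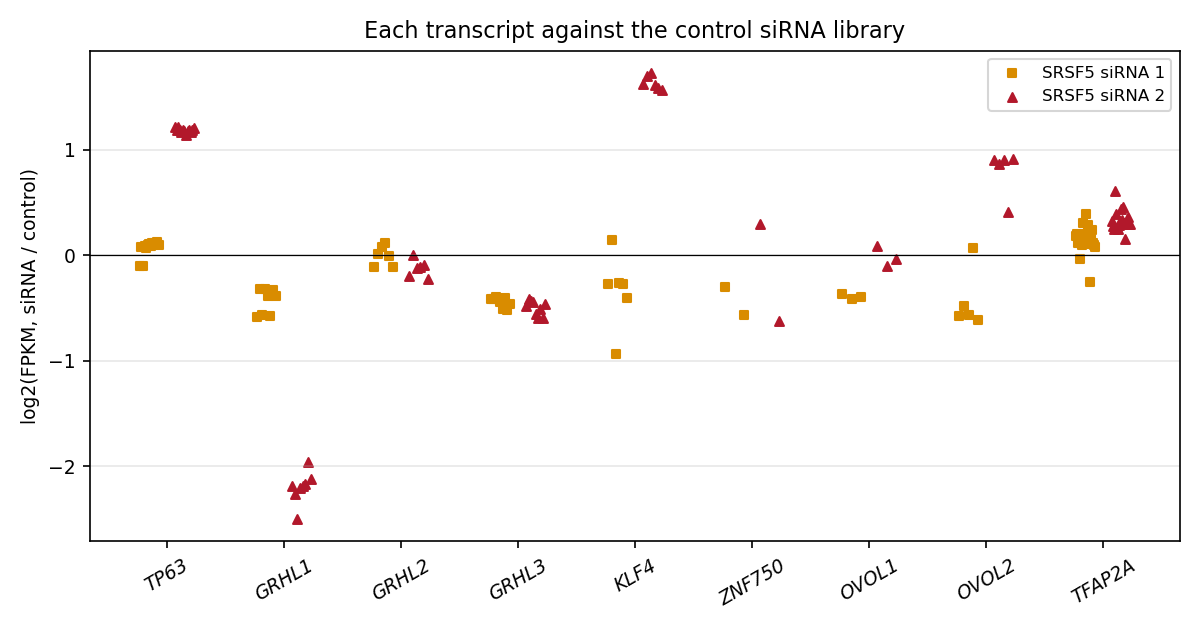
Log2 ratio of each member transcript's FPKM to the control, for siRNA 1 and for siRNA 2, 1 point for each transcript above 0 in the control. With siRNA 2 those of TP63 stand for 2.20 to 2.32 times the control and those of GRHL1 for 0.177 to 0.256 times, while with siRNA 1 those of KLF4 spread from 0.521 to 1.10 times.

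The other genes of the programme were taken from lists by role, and some genes stand in more than one list. Of 30 other epidermal and epithelial transcription factors, 22 were compared, with a median log2 ratio of -0.13 with siRNA 1 and 0.51 with siRNA 2. In both libraries 0 were at least 1.5-fold higher and 1 lower, where 3.19% of all genes were higher and 1.47% lower. The lower one was ELF3, an epithelial ETS factor. ELF3 had 5.45 FPKM per transcript with siRNA 1, 6.36 with siRNA 2 and 10.5 with the control. KLF5, a factor of proliferating epithelium and one of the most abundant, was on either side of the control, with 17.3 FPKM per transcript with siRNA 1, 63.9 with siRNA 2 and 34.5 with the control. CEBPB had 19.4, 37.7 and 21.1.

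Among these factors, the one nearest in its pair of log2 ratios was TP73 for TP63 (distance 0.262; 0.08 with siRNA 1 and 0.90 with siRNA 2), BNC1 for OVOL2 (0.147; -0.50 and 0.79) and CEBPA for TFAP2A (0.110; 0.27 and 0.34). HES1 was nearest to OVOL1 (0.277) and TBX3 to both GRHL2 (0.0801) and GRHL3 (0.446). For GRHL1 the nearest, ELF3, was 1.14 away, the farthest of these. The distance is Euclidean over 2 values that share the control, and 22 factors were compared.

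Of 6 mesenchymal transcription factors, which OVOL and grainyhead-like factors are known to hold down, 3 were compared. With siRNA 2, 2 of the 3 were at least 2-fold higher, where 4.5% of all genes were, and their median log2 ratio was 0.24 with siRNA 1 and 1.09 with siRNA 2. Of the 3, SNAI2, which encodes Slug, was at least 1.5-fold higher with both siRNAs, where 3.19% of all genes were. SNAI2 had 4.45 FPKM per transcript with siRNA 1, 10.3 with siRNA 2 and 2.61 with the control. TWIST1 had 0.274, 0.757 and 0.180 FPKM per transcript and TWIST2 0.684, 0.992 and 1.04 in the same order of libraries. TWIST1 entered the comparison only through its siRNA 2 level, and its siRNA 2 log2 ratio is the median of 1.09. The filter therefore had a part in the siRNA 2 count and in the medians of these 3 genes.

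Genes known as p63 targets had a median log2 ratio of 0.29 with siRNA 1 and 0.54 with siRNA 2 over 15 of 16 compared. Of the 15, CDKN1A, an inhibitor of the cell cycle, was the one at least 1.5-fold higher in both, where 3.19% of all genes were. CDKN1A had 3.68 FPKM per transcript with siRNA 1, 3.86 with siRNA 2 and 2.41 with the control. With siRNA 2, KRT14 was at least 2-fold higher and ITGA3 at least 2-fold lower. KRT14, the basal keratin, had 347 FPKM per transcript with siRNA 1, 1055 with siRNA 2 and 238 with the control, but near-identical copies of this gene exist and its value is uncertain. Its partner KRT5 had 233, 320 and 205, and PERP, a desmosomal gene, 82.1, 91.0 and 68.0.

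Genes known as grainyhead-like targets had medians of 0.08 with siRNA 1 and 0.22 with siRNA 2 over 9 of 10 compared. Of the 9, CDH1, which encodes E-cadherin, was the one at least 1.5-fold higher in both, where 3.19% of all genes were. CDH1 had 22.3 FPKM per transcript with siRNA 1, 18.9 with siRNA 2 and 6.0 with the control. GRHL1, GRHL2 and GRHL3 were each at or below the control. The limma adjusted p of CDH1 was 0.638. EPCAM, an adhesion gene, had 64.3 FPKM per transcript with siRNA 1, 55.6 with siRNA 2 and 57.8 with the control, and RAB25 had 7.87, 13.9 and 11.1. TGM1, a cross-linking enzyme of the cornified envelope, was at least 2-fold higher with siRNA 2, at 0.189, 1.38 and 0.173 FPKM per transcript.

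Late differentiation genes, which KLF4, ZNF750 and GRHL3 are known to serve, differed between siRNA 1 and siRNA 2. Of 23 listed, 12 were compared, with medians of -0.09 with siRNA 1 and 1.01 with siRNA 2. At 1.5-fold in both libraries the count was 0 in each direction, where 3.19% of all genes were higher and 1.47% lower. With siRNA 2, 6 of the 12 were at least 2-fold higher and 0 lower, where 4.5% of all genes were higher and 2.83% lower. One of the 6, FLG, had 0.703 FPKM with siRNA 1, 8.16 with siRNA 2 and 0.179 with the control. FLG entered the comparison only through its siRNA 2 level, so the filter had a part in this count and in the median. SPRR1B, a precursor of the cornified envelope, had 7.86 FPKM with siRNA 1, 56.5 with siRNA 2 and 8.34 with the control. SPRR1A had 8.61, 32.7 and 16.3, and PPL, which encodes periplakin, 34.2, 33.2 and 28.7 per transcript. The added level of the keratinocyte markers was also highest in the siRNA 2 library (2331, against 1163 with the control), and its part in these values was not tested. With siRNA 1, 1 gene was at least 2-fold higher, IVL, and 1 lower, PI3, where 1.7% of all genes were higher and 1.33% lower. Their siRNA 2 ratios had the opposite sign: the log2 ratio of IVL was 1.09 with siRNA 1 and -0.78 with siRNA 2, and that of PI3 was -1.83 and 0.85. limma called 0 genes in each of these lists. In bulk RNA, a different number of cells of a state and a different amount of RNA per cell cannot be told apart.

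**Figure D5:**
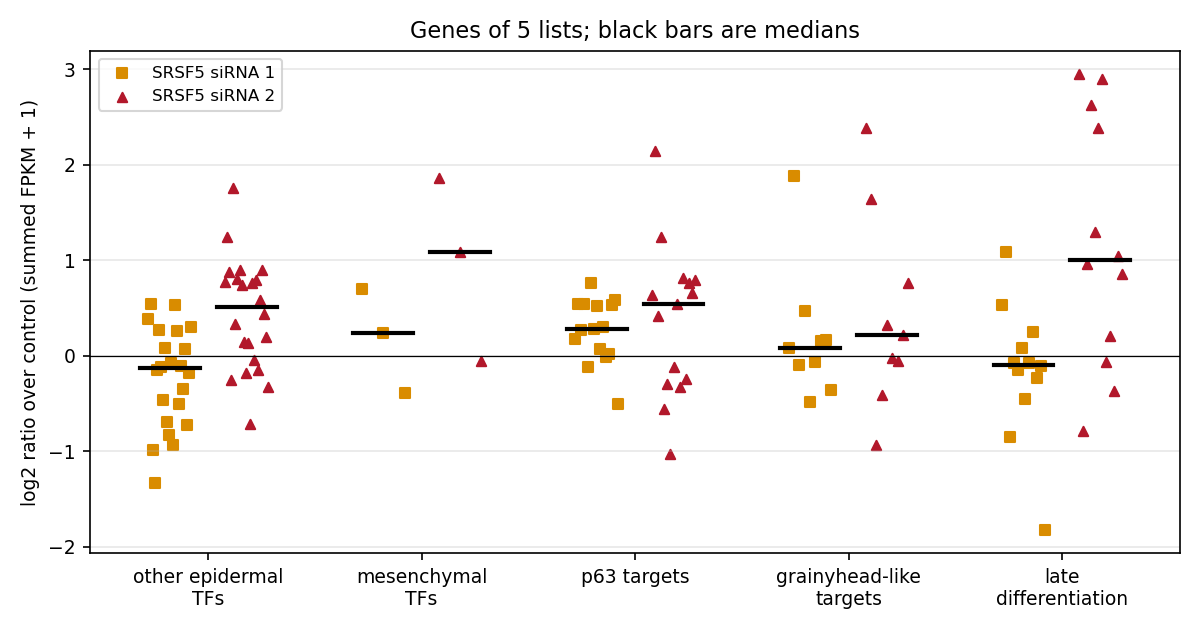
Log2 ratios to the control of the genes of each list, siRNA 1 and siRNA 2, 1 point for each gene compared, with the list's median as a bar. The medians of late differentiation genes are -0.09 with siRNA 1 and 1.01 with siRNA 2. FLG is included there only through its siRNA 2 level.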

How the data were processed

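The authors deposited FPKM per transcript for 3 libraries, with exons, strand and length, per the file headers. Libraries were made from HaCaT RNA with a SMARTer mRNA kit, per the labels' protocols. No source used here names the aligner or counter, and the builds GRCm38, mm10 and GRCh38.p12 are named without a role in the submitters' processing notes. Exon coordinates are as the files list them. FPKM times length gave whole base counts in 100% of values (tolerance 0.05), from which read equivalents and bounds on exon stretches were computed. Of 247012 transcripts, 20343 on other scaffolds or in duplicate were left out. The handling of multiply matching reads is unknown. Genes with a mean summed FPKM of at least 1 over the libraries were compared (13923), by fold and with limma 3.58.1 in R 4.3.3 (trend, log2 of FPKM plus 1, Benjamini-Hochberg over all genes, 1 residual degree of freedom, the lone control assumed to vary like the siRNA libraries). The code was tested on simulated data. Members and lists were chosen with earlier results of these data known. Named from each list were genes at least 1.5-fold apart the same way in both siRNA libraries and the 3 with the highest FPKM per transcript. Also named was the listed factor nearest to each member in its pair of ratios. ITGA3, TGM1, IVL and PI3 were named for single-library folds after their values were seen. Some results that this rule names are not reported here.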

Additional observations from a re-analysis of the deposited data

How the results depend on the processing

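No paired analysis was possible because each siRNA and the control had 1 library, so there were no pairs to form. The counts of genes at least 2-fold apart moved with the gene level and the pseudocount. With a pseudocount of 0.1 FPKM they were 297 in both siRNA libraries, 735 with siRNA 1 and 1544 with siRNA 2, against 141, 421 and 1021 as reported. With the mean over transcripts they were 57, 188 and 457, and with the highest transcript 71, 237 and 576. With 1 siRNA library left out, the count in both becomes the other library's own count, 421 to 1021, which is no separate check. limma called 3 genes with a robust fit and 0 as reported, and a limma fit without 1 siRNA library has no residual degrees of freedom and was not run. The causes were not tested. The long-form share of TP63 was 42.6% with siRNA 1, 43.1% with siRNA 2 and 42.8% with the control by mean per transcript, and 59.1%, 58.4% and 58.5% in transcripts longer than the median. Of the members' mean log2 ratios over both siRNAs, none of which was called, 4 of 72 moved by more than the spread. That spread is taken from the difference between the siRNAs, so a value with 1 siRNA library left out could not exceed it. The setting without the filter repeats the reported values. The share that moved is therefore no check of members on which the siRNAs differ. The sign turned for ZNF750 with the highest transcript (0.0047, against -0.06 as reported), and with 1 siRNA library left out for OVOL1 (0.0015, against -0.18), OVOL2 (-0.36, against 0.20) and KLF4 (-0.21, against 0.63). By siRNA, TP63 with siRNA 2 was 0.89 with the mean over transcripts and 0.95 with the highest transcript, under 2-fold, and GRHL1 was -0.70 and -0.96, while KLF4 stayed above at 1.04 and 1.10. OVOL2 with siRNA 1 was 0.06 with the highest transcript, against -0.36 as reported. Depth limits what can be said of transcripts with few reads, such as those of ZNF750, of GRHL1 with siRNA 2 and of the TP63 long form.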
